A study of Mus musculus with 24 samples.

Results

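The 35 genes described here are made by nerve cells, from the transcription factors that start a neuron to the filaments, vesicle proteins and ion channels of a maturing one. They were measured in the jaws of mouse embryos at embryonic day 12.5. The members were taken by name: every probe set of the array (a group of short probes for 1 transcript) annotated to 1 of the 35 symbols was collected, and the brightest of them, by its average on all 24 arrays, represented the gene. All 35 genes were found, among 18193 genes with such a probe set, and all 35 were among the 13837 genes that passed the filter on low values. Passing needed a log2 value above 6.07, the 40th percentile of the table, on at least 2 arrays. That filter asks little of a gene that is bright on a few arrays, so it says nothing about how widely the members were detected. Per array, between 17 and 35 members lay above that level.

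RNA came from mandible and maxilla, the lower and upper jaw, each cut into a proximal and a distal end. Litters were from Wnt1cre;Alk5fl/+ mice mated with Alk5fl/fl mice. Alk5 is the type I TGF-beta receptor encoded by Tgfbr1, and Wnt1-Cre deletes it in neural crest cells, from which the facial mesenchyme and part of the cranial ganglia arise. Jaw epithelium, blood vessels, muscle and placode-derived neurons have other origins. Mutants, called knockouts here, were picked by cleft palate and calvarial (skull vault) defect, and controls were littermates whose exact genotype was not given in the sources used here. The strain label is C57B6 for each array. Each of the 4 parts (proximal mandible, distal mandible, proximal maxilla, distal maxilla) had 2 control and 4 knockout arrays, numbered 1 to 4. Whether a number stands for 1 embryo or a pool, and how far cuts extended towards nose, ganglia or brain, was not given.

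The sensory neurons of the jaws sit in the trigeminal ganglion, behind the jaw primordia, and send axons into mandible and maxilla. Other neurons nearby are those of the olfactory epithelium, which lies above the maxilla, and of the brain. Such cells are born under bHLH factors such as Neurog1 and Neurod1, switch on RNA-binding proteins of the Elavl family, and then build axons from neuronal tubulin, stathmins and neurofilaments. Most RNA of a neuron lies in its cell body rather than its axon. In bulk tissue, fewer neurons and less RNA per neuron cannot be told apart.

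The tissue labels fitted the jaws: Hand2, a mandible-forming factor, read 10.46 to 13.11 (log2) on the 12 mandible arrays and 5.77 to 8.86 on the 12 maxilla arrays. Of the 3 probe sets for Tgfbr1, the brightest read 11.98 to 12.69 in controls and 12.07 to 12.64 in knockouts, and the others 7.02 to 8.31 against 5.42 to 7.07 and 6.64 to 7.57 against 4.33 to 7.97. Where the deleted exon lies relative to these probes was not tested. Knockout arrays numbered 1 and 2 stood apart in RNA quality. A 3' against 5' log2 difference, taken from control probe sets and larger where RNA is degraded, was 0.705 to 1.5 on those 8 arrays, 0.00093 to 0.162 on knockout arrays 3 and 4 and 0.127 to 0.223 on the controls. Control probe sets for hybridisation averaged 10.09 to 11.07 on the control arrays. They averaged 11.30 to 12.19 on knockout arrays 1 and 2 and 9.03 to 9.51 on knockout arrays 3 and 4, so no set overlapped another. Knockouts 3 and 4 thus also differed from controls by array set. Genotype and array set cannot be told apart in either comparison with controls. By Xist and the Y-linked gene Kdm5d, all 8 control arrays were male, and each knockout set had 4 male and 4 female arrays. The proximal maxilla array of knockout 1 was female while its other 3 parts were male, and that of knockout 2 was male while its other 3 parts were female. Those 2 arrays therefore cannot come from the same single embryo as the other parts of their number, and results that use them are also given without them. In knockouts 3 and 4 and in controls the sexes matched within a number.

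E-boxes are the short sequences that bHLH factors bind. The promoters of 6 members that the results turn on are shown so that a reader can place these letters: Neurod1, Nhlh2, Elavl3 and Tubb3 differed between the jaws, and Pou4f1 and Prph differed widely among arrays of the proximal maxilla. Each is the 250 bases before the start of the gene, 5′ to 3′ on the gene's strand, from RefSeq (GRCm38.p6). Capitals mark the E-box letters CAGCTG or CAGATG, the homeodomain core TAATTA, the basal promoter letters TATAAA or the neuron-restrictive silencer core TTCAGCACC, of which none contains another. They lie at chr2:79456637-79456886 (minus strand, Neurod1), chr3:102009895-102010144 (plus, Nhlh2), chr9:22052024-22052273 (minus, Elavl3), chr8:123411303-123411552 (plus, Tubb3), chr14:104468000-104468249 (minus, Pou4f1) and chr15:99054924-99055173 (plus, Prph).
Neurod1: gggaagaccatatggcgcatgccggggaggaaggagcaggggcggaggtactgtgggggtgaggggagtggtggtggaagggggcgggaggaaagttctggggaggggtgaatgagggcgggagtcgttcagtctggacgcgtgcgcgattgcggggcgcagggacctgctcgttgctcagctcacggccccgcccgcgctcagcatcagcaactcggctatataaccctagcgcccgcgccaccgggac
Nhlh2: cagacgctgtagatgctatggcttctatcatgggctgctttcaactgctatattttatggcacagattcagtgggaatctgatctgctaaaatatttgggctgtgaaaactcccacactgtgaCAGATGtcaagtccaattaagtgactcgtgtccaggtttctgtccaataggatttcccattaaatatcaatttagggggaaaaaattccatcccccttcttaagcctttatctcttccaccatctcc
Elavl3: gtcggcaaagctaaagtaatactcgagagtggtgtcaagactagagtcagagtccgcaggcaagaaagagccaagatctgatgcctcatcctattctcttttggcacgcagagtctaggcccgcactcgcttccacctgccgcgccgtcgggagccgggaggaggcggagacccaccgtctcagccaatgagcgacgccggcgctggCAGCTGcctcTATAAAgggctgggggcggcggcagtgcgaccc
Tubb3: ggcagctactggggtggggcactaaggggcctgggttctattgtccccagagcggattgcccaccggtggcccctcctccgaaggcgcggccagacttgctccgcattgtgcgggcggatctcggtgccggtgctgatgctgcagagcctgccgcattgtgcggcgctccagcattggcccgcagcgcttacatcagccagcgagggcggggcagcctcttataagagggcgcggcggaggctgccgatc
Pou4f1: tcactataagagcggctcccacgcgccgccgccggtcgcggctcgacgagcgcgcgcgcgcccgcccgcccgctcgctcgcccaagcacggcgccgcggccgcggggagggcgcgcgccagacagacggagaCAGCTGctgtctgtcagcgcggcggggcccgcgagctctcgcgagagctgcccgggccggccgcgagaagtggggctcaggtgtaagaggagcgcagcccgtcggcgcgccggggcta
Prph: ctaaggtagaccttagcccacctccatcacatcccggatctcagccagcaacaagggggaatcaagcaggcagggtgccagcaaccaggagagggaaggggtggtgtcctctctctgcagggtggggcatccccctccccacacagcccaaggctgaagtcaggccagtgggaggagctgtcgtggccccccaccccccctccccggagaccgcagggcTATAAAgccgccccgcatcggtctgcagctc

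Of the 35 members, 24 had a promoter in the RefSeq table. Read on both strands, CAGCTG stood in the window of 10 of the 24, against 14.7% of all 27018 genes with a window, and CAGATG in 7 of the 24, against 16.3%. TAATTA stood in 4 of 24 against 5.65%, TATAAA in 4 of 24 against 14.3%, and TTCAGCACC in 0 of 24 against 0.348%. Elavl3 has CAGCTG followed closely by TATAAA, Nhlh2 has CAGATG, Pou4f1 has CAGCTG and Prph has TATAAA, while the windows of Neurod1 and Tubb3 hold none of the 5. Genes with more than 1 start site have more chances of a match, and a match is a description of the letters, not a binding site.

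Most neuron genes read higher in the maxilla than in the mandible, and many varied widely among arrays of the same part. Among the members called, the bHLH factors Neurod1 and Nhlh2 had the largest differences between the jaws. The range over the 24 arrays was at least 6 log2 units for 11 members, at least 4 for 24 members and under 2 for 6 members. The widest was Stmn2, at 7.68, and the narrowest Cntn2, at 0.69 on the probe set used. A single array, the proximal maxilla of control 1, held the highest value of 25 of the 35 members. The distal maxilla of control 1 held that of 5 more. Of the lowest values, 13 lay on the distal mandible arrays of knockouts 1 and 2, which held 6 and 7. Those 2 arrays had 3' against 5' differences of 1.34 and 1.35. The shares of all genes with their highest or lowest value on these arrays are not given here. The counts therefore do not show that the members differ from other genes in this.

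**Figure D1:**
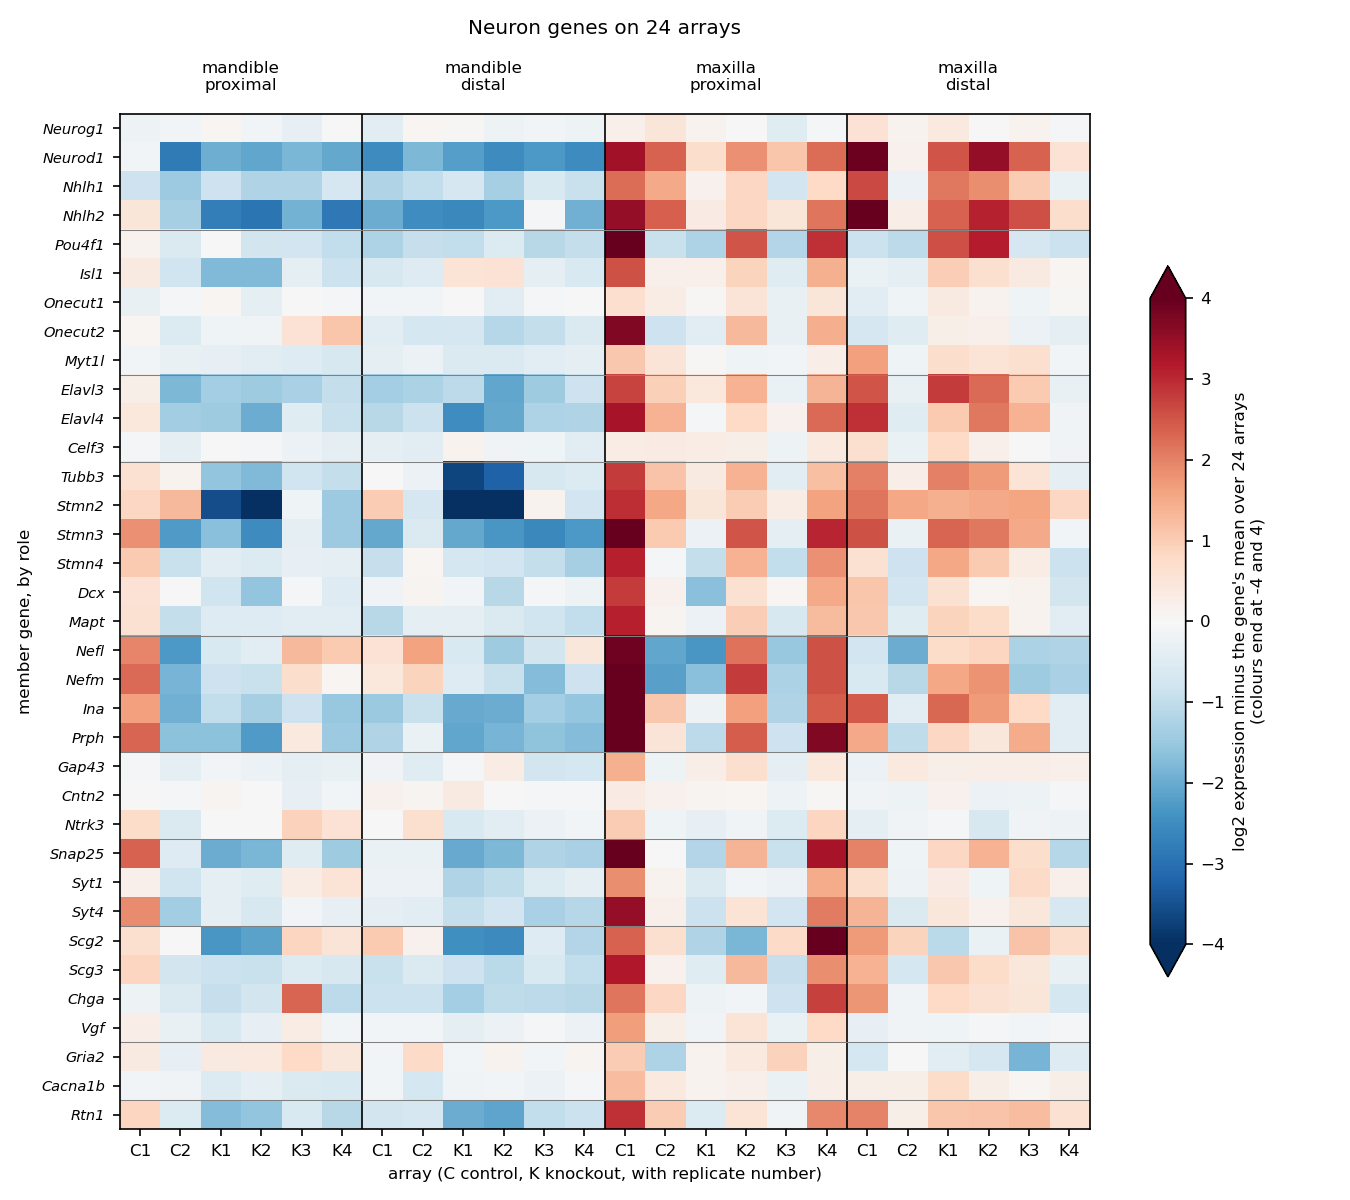
Heat map of the 35 members (rows, ordered by role) on the 24 arrays (columns, by part, C control and K knockout with the replicate number), coloured by log2 expression minus the gene's mean over all arrays, with colours ending at 4 units either way. Most rows are blue in the mandible and red in the maxilla, the proximal maxilla column of control 1 is red throughout most roles, and Stmn2 is dark blue in the mandible of knockouts 1 and 2.

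Neurod1, a bHLH factor that drives newly born neurons to differentiate, gave the clearest contrast between the jaws. On the mandible arrays its log2 level was 7.27 and 4.57 in the proximal and 4.89 and 5.60 in the distal part of controls 1 and 2. In knockouts 1 to 4 it was 5.43, 5.33, 5.58 and 5.35 proximally and 5.20, 4.88, 5.10 and 4.88 distally. On the maxilla arrays it was 10.76 and 9.75 proximally and 11.33 and 7.57 distally in controls, with 8.11, 9.23, 8.50 and 9.63 proximally and 9.91, 10.91, 9.76 and 7.98 distally in knockouts. All 12 maxilla arrays therefore lay above all 12 mandible arrays, and within the maxilla the distal arrays of control 2 and knockout 4 were the lowest. In controls the mean of both ends was 4.27 ± 0.70 log2 units (SE) higher in the maxilla, a 19.3-fold difference (limma, adjusted p = 0.0114). In knockouts it was 3.45 ± 0.70 higher at the proximal end, 10.9-fold (adjusted p = 0.0463), and 4.63 ± 0.70 higher at the distal end, 24.7-fold (adjusted p = 0.00214).

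Nhlh2, another bHLH factor of young neurons, followed Neurod1. In the mandible it read 7.57 and 5.73 proximally and 5.08 and 4.57 distally in controls, 4.29, 4.14, 5.16 and 4.21 proximally and 4.49, 4.78, 7.02 and 5.15 distally in knockouts. In the maxilla it read 10.58 and 9.47, then 11.04 and 7.34, in controls, and 7.40, 7.91, 7.54 and 9.20, then 9.43, 10.14, 9.64 and 7.77, in knockouts. The jaws were apart within the knockouts, whereas in controls the proximal mandible of control 1 lay above the distal maxilla of control 2. The difference was 3.87 ± 0.73 (SE) in controls (limma, adjusted p = 0.0343), 3.56 ± 0.73 proximally (adjusted p = 0.0479) and 3.89 ± 0.73 distally in knockouts (adjusted p = 0.011).

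Nhlh1, the close relative of Nhlh2, read 4.61 to 5.22 on the 4 control mandible arrays and 4.73 to 5.45 on the 8 of knockouts. Its control maxilla values were 8.29, 7.57, 8.72 and 5.85, and those of knockouts were 6.24, 6.91, 5.32 and 6.85 proximally and 8.17, 7.94, 7.09 and 5.79 distally. It was 2.66 ± 0.53 (SE) higher in the maxilla of controls, just outside the threshold (limma, adjusted p = 0.0504), and 2.06 ± 0.53 higher distally in knockouts (adjusted p = 0.0688).

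Neurog1, which specifies sensory and olfactory neuron precursors, depended on the probe set. The brighter of its 2 probe sets, which stood for the gene, hardly moved, from 5.67 to 6.75. Its other probe set ran from 3.54 to 10.32. On the latter the mandible arrays read 3.54 to 4.30. The control maxilla arrays read 8.45 and 8.25 proximally and 10.32 and 5.49 distally, and those of knockouts 6.74, 7.25, 6.59 and 8.11 proximally and 8.84, 9.09, 8.04 and 5.14 distally. On that probe set, chosen after its values were seen, the distal knockout maxilla was 3.82 ± 0.81 (SE) higher than the mandible (limma, adjusted p = 0.0265), against 0.24 ± 0.16 on the brighter probe set (adjusted p = 0.84).

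**Figure D2:**
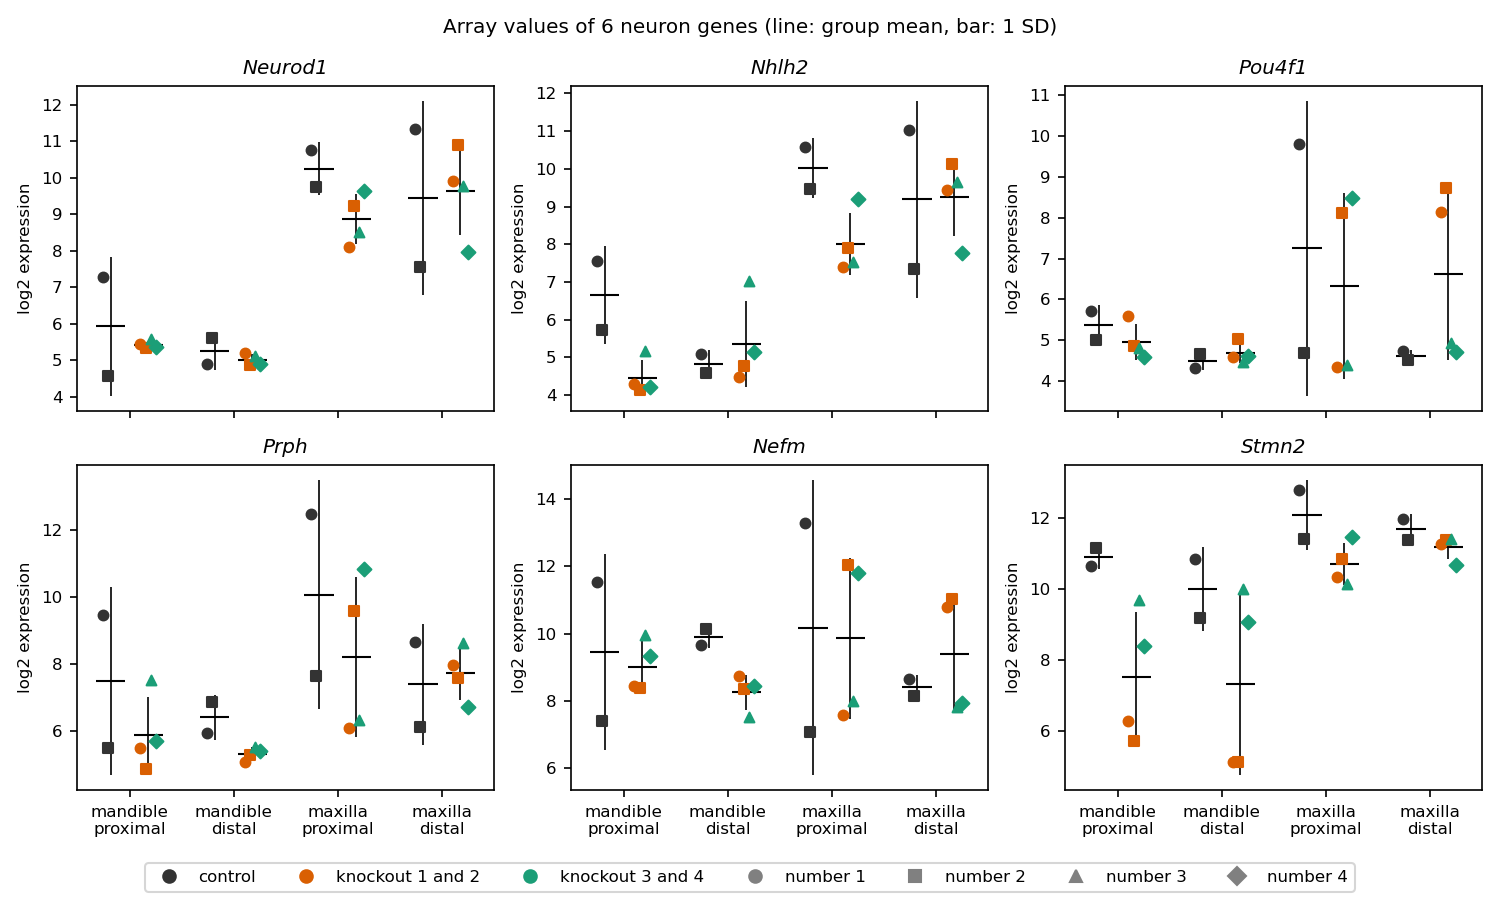
Array values (log2 expression) of Neurod1, Nhlh2, Pou4f1, Prph, Nefm and Stmn2 in the 4 parts, with controls on the left and knockouts on the right of each part; lines are group means and bars 1 SD (n = 2 controls, n = 4 knockouts). Neurod1 lies above 7.5 on each maxilla array, whereas Pou4f1 lies above 8 on 5 maxilla arrays and below 5 on the other 7.

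Counted over the list, 2 of 35 members differed between the jaws in controls (Neurod1 and Nhlh2, both higher in the maxilla), where 0.181% of all genes tested were called. The same 2 of 35 were called in the proximal knockouts, where 0.231% of all genes were called. In the distal knockouts 5 of 35 were called, all higher in the maxilla (Neurod1, Nhlh2, Elavl3, Tubb3 and Rtn1), where 1.2% of all genes were called and 0.65% were called higher. The median member difference was 1.01, 0.84 and 1.14 log2 units, against 0.00, 0.01 and 0.02 over all genes. The difference lay above 0 for 30, 31 and 33 of the 35 members, against 51%, 53.5% and 56.4% of all genes.

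These calls rested on few arrays. In the distal knockouts 0 of 35 members were called without knockout 1, 2 or 3 (0.137%, 0.173% and 0.217% of all genes), 5 without knockout 4 (0.564%) and 10 without either control (2.28%). In controls, which share 1 estimate of the spread with the knockouts, 0 were called without knockout 1 or 3 (0.0795% and 0.094% of all genes) and 1 without knockout 2, knockout 4 or control 1 (0.094%, 0.065% and 0.173%). Without control 2, 4 were called (0.231%). In the proximal knockouts 0 were called when any 1 of the 4 knockouts was left out (0.0145% to 0.065% of all genes). With knockouts 3 and 4 alone, 0 of 35 were called at either end (0.0145% of all genes proximally and 0.0578% distally), and with knockouts 1 and 2 alone, 1 proximally (0.195%) and 4 distally (1.58%). Without the 2 proximal maxilla arrays of unmatched sex, 1 member was called in controls (Neurod1; 0.137% of all genes), 0 in the proximal knockouts (0.065%) and 3 in the distal knockouts (Neurod1, Nhlh2 and Rtn1; 0.94%). The proximal differences were then 3.64 for Neurod1 and 3.92 for Nhlh2 (limma, adjusted p = 0.216 and 0.187). The sign of each called difference was kept in all of these fits.

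Knockout samples with the same number deviated together in all 24 pairs of parts, the 2 arrays of unmatched sex included. Numbers 1 and 2 and numbers 3 and 4 also form the 2 knockout array sets, so this check cannot tell number from array set. By sex, a shared number does not always mean 1 embryo. With the number as a replicate block, 10 members were called in the distal knockouts, with 4.09% of all genes, and the additions were Elavl4 (2.85 ± 0.60), Stmn2 (3.87 ± 0.81), Stmn3 (3.78 ± 0.93), Nhlh1 (2.06 ± 0.51) and Myt1l (0.94 ± 0.24; SE, limma adjusted p = 0.019, 0.019, 0.0353, 0.0357 and 0.0431). The Stmn2 difference was uneven between array sets. Its distal mandible read 5.12 and 5.11 in knockouts 1 and 2 and 9.99 and 9.06 in knockouts 3 and 4. Its distal maxilla read 10.68 to 11.42 in the 4 knockouts. In the proximal knockouts the block called 2, with 0.47% of all genes. With the block and without those 2 arrays, 8 were called distally (3.67% of all genes) and 0 proximally (0.0795%).

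The jaws could also be set side by side array by array, maxilla against mandible of the same genotype, number and end, in 12 pairs. The pairs are a description: controls showed no steady deviation by number (r between parts from -0.681 to 0.584). The proximal pairs of knockouts 1 and 2 join opposite sexes. Higher in the maxilla in all 12 were 11 of the 35 members, against 1.96% of all genes tested: Neurod1, Nhlh1, Nhlh2, Myt1l, Elavl3, Elavl4, Celf3, Tubb3, Stmn2, Cacna1b and Rtn1. Over the 6 knockout pairs of matching sex alone, the same 11 members were higher in all, against 7.57% of all genes. In at least 10 of the 12 pairs 22 members were higher, against 12.5% of all genes. Neurofilaments Nefl and Nefm were higher in 6 of 12 pairs, Cntn2 and Ntrk3, on the probe sets used, in 5, and Gria2 in 2. Pair differences ran from 1.97 to 6.44 for Neurod1, from 2.37 to 5.96 for Nhlh2, and from -3.60 to 2.60 for Nefl.

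**Figure D3:**
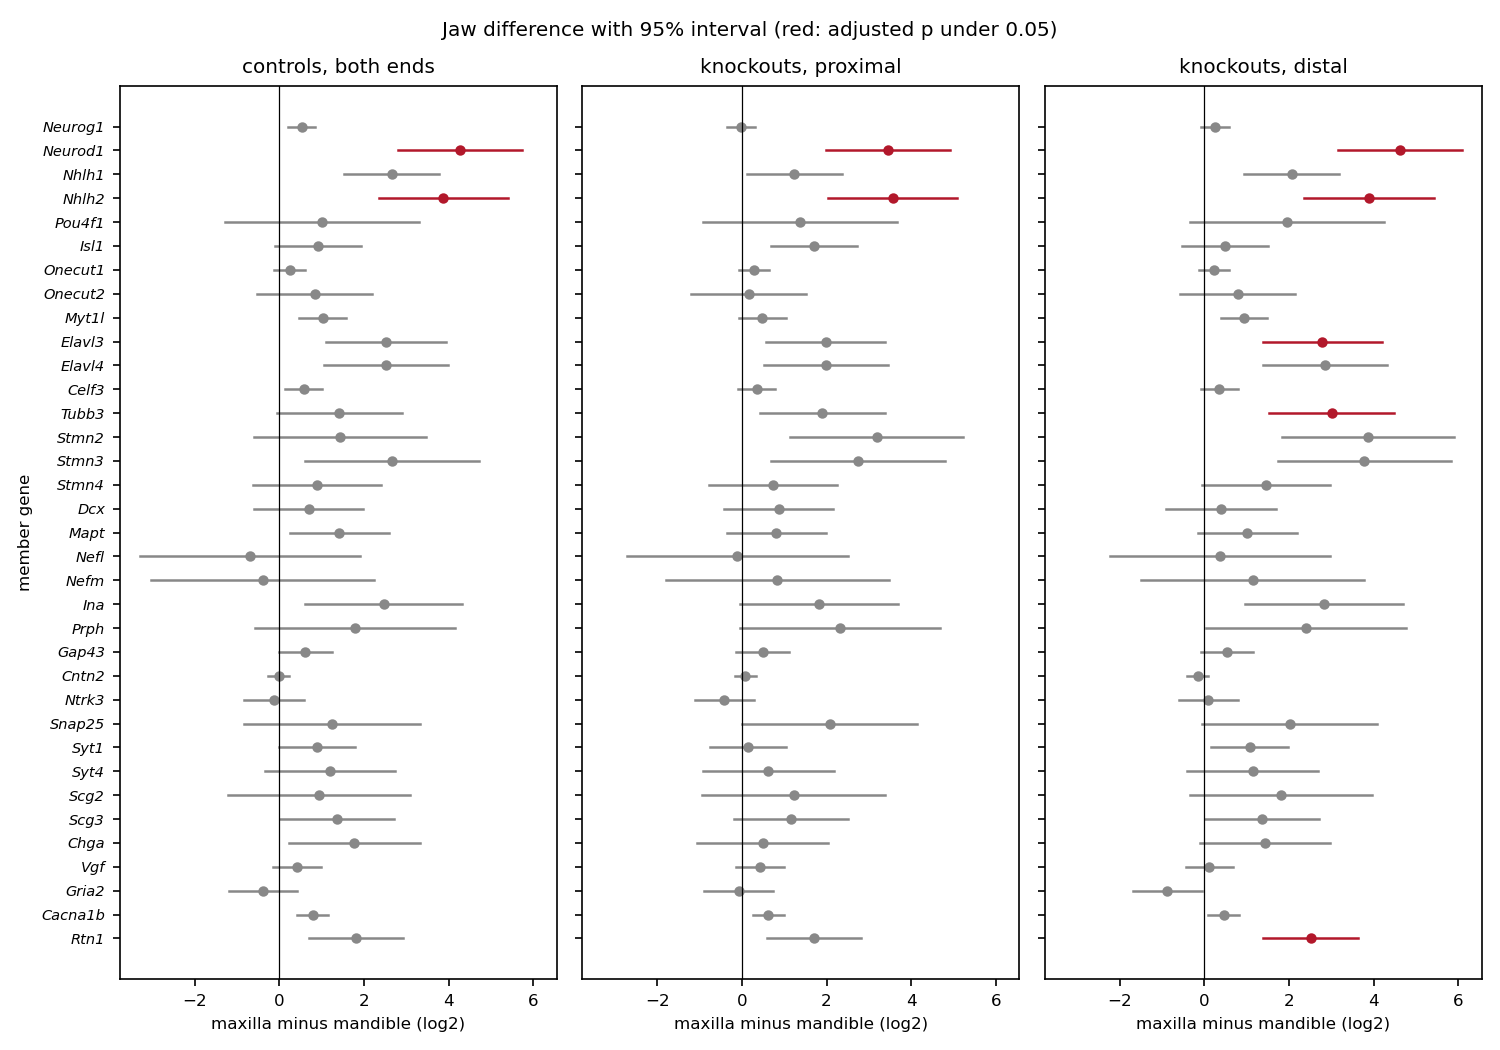
Difference between maxilla and mandible (log2, horizontal axis) of each member (rows) in controls, in proximal knockouts and in distal knockouts; points are limma estimates, bars their 95% intervals, and red marks an adjusted p under 0.05. Neurod1 and Nhlh2 are red in all 3 panels, Elavl3, Tubb3 and Rtn1 in the distal knockouts, and the bars of Nefl and Nefm span 0 in each panel.

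Pou4f1, a POU factor of sensory ganglion neurons, read 4.33 to 5.72 on the 12 mandible arrays. Its maxilla values were 9.81 and 4.69 proximally and 4.73 and 4.52 distally in controls, and 4.34, 8.11, 4.40 and 8.49 proximally and 8.14, 8.72, 4.92 and 4.72 distally in knockouts. It was thus high on 5 maxilla arrays, control 1, knockout 2 and knockout 4 proximally and knockouts 1 and 2 distally, and at mandible level on the other 7. Its other probe set followed it (Pearson r = 0.96 over the 24 arrays, which share embryos and normalisation). With a group SD of up to 3.62 (n = 2), no jaw difference of Pou4f1 passed the test (1.01 ± 1.09 in controls, 1.37 ± 1.09 and 1.95 ± 1.09 in knockouts; SE, limma).

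**Figure D4:**
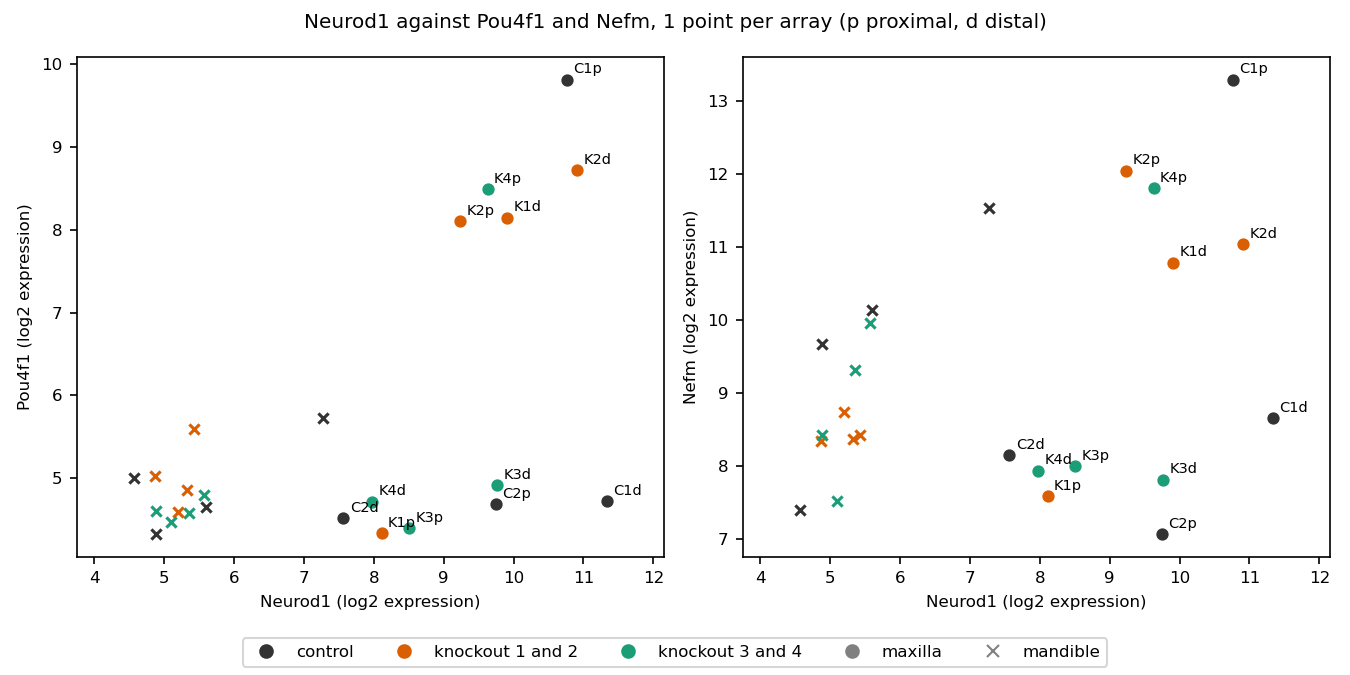
Neurod1 (horizontal, log2 expression) against Pou4f1 (left) and Nefm (right), 1 point per array, circles for maxilla and crosses for mandible; maxilla labels give genotype, number and end (p proximal, d distal). All circles lie to the right of the crosses, but only C1p, K2p, K4p, K1d and K2d lie high on Pou4f1, and the distal maxilla of control 1, with the highest Neurod1 of 11.33, reads 4.73 for Pou4f1.

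Onecut2, a cut-homeodomain factor, was high on the proximal maxilla of control 1 (9.13), moderate on that of knockouts 2 and 4 (6.72 and 6.87), and 6.52 or lower on the other 21 arrays. Onecut1 stayed between 5.37 and 6.47. Isl1, a LIM-homeodomain factor of sensory and motor neurons that other embryonic tissues make too, was never low: it read 9.74, 8.59, 8.74 and 8.85 in the control mandible and 11.90, 9.58, 9.11 and 8.98 in the control maxilla. In the knockout mandible it read 7.60, 7.60, 8.97 and 8.52 proximally and 9.93, 9.95, 8.96 and 8.77 distally, and in the knockout maxilla 8.90 to 10.79. Myt1l, a zinc finger repressor of non-neuronal genes, read 6.39 to 6.91 in the mandible and 6.87 to 8.67 in the maxilla, and its highest value was on the distal maxilla of control 1. On the probe set used it averaged 0.82 log2 units higher in the maxilla. On its other probe sets the difference was 0.20, 0.44, 1.93 and 2.48.

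The neuronal RNA-binding proteins sat close to Neurod1. Elavl3 (HuC) read 6.13 to 8.46 in the mandible, with 8.46 on the proximal array of control 1 and 7.40 or less on the others. Its maxilla values were 10.93 and 9.16, then 10.75 and 7.91, in controls, and 8.63, 9.61, 7.95 and 9.58, then 11.00, 10.47, 9.26 and 7.93, in knockouts. At the distal end of knockouts it was 2.79 ± 0.67 higher in the maxilla than in the mandible (SE; limma, adjusted p = 0.049), 6.91-fold, and it was 2.52 ± 0.67 higher in the control maxilla (adjusted p = 0.198). Elavl4 (HuD) read 6.23 to 9.16 in the mandible and 8.25 to 12.03 in the maxilla. Celf3, a splicing factor, moved little, from 6.80 to 8.04.

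Of the microtubule genes, Tubb3, the neuron-specific beta-tubulin, was 9.26, 8.78, 8.65 and 8.39 in the control mandible and 11.44, 9.77, 10.65 and 8.89 in the control maxilla. In the knockout mandible it was 7.05, 6.87, 7.85 and 7.69 proximally and 4.96, 5.41, 8.01 and 8.08 distally, so the lowest values were the distal mandible of knockouts 1 and 2. In the knockout maxilla it was 8.99, 10.03, 8.20 and 9.84 proximally and 10.66, 10.35, 9.18 and 8.28 distally. The distal jaw difference in knockouts was 3.01 ± 0.70 (SE; limma, adjusted p = 0.043), 8.04-fold. It was 5.33 with knockouts 1 and 2 alone and 0.69 with knockouts 3 and 4 alone.

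Stmn3, a stathmin that binds tubulin, was 10.52, 6.41, 6.65 and 8.10 in the control mandible and 12.94, 9.73, 11.22 and 8.41 in the control maxilla. In knockouts it ran from 6.10 to 8.32 in the mandible, against 8.45, 11.20, 8.28 and 11.73 in the proximal and 11.00, 10.78, 10.19 and 8.58 in the distal maxilla. Its relative Stmn4 read 6.16 to 8.52 in the mandible and 6.48 to 10.59 in the maxilla. Dcx, which marks migrating young neurons, spanned 6.95 to 11.44, and Mapt, the axonal protein tau, 7.08 to 11.30, both highest on the proximal maxilla of control 1.

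Nefl, the light neurofilament chain, read 11.59, 7.32, 10.20 and 11.23 in the control mandible and 13.52, 7.55, 8.86 and 7.63 in the control maxilla. In knockouts it read 9.02, 9.20, 10.93 and 10.66 in the proximal and 9.01, 8.21, 8.88 and 10.07 in the distal mandible. In the maxilla it read 7.30, 11.80, 8.11 and 12.18 proximally and 10.37, 10.49, 8.36 and 8.42 distally. Several mandible arrays therefore lay above most maxilla arrays, and the jaw difference was -0.70 ± 1.24 in controls, -0.11 ± 1.24 in proximal and 0.37 ± 1.24 in distal knockouts (SE, limma, none called).

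Nefm, its partner in the filament, showed 11.53 and 7.40, then 9.66 and 10.14, in the control mandible, and 13.29 and 7.07, then 8.65 and 8.14, in the control maxilla. Knockout maxilla values were 7.58, 12.04, 8.0 and 11.81 proximally and 10.78, 11.04, 7.81 and 7.94 distally. The 5 maxilla arrays with high Pou4f1 were also the 5 highest of the maxilla for Nefm.

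Prph, peripherin, the intermediate filament of peripheral neurons, was 9.47, 5.51, 5.95 and 6.89 in the control mandible and 12.49, 7.66, 8.67 and 6.13 in the control maxilla. In knockouts it was 5.50, 4.88, 7.52 and 5.71, then 5.08, 5.30, 5.55 and 5.41, in the mandible, and 6.11, 9.58, 6.33 and 10.85, then 7.99, 7.59, 8.63 and 6.71, in the maxilla. Its highest values came from the proximal maxilla of control 1, knockout 4 and knockout 2. Ina, alpha-internexin of young axons, ran from 6.0 to 9.67 in the mandible and from 6.82 to 12.12 in the maxilla. In distal knockouts it was 2.83 ± 0.89 higher in the maxilla without passing the test (SE; limma, adjusted p = 0.148).

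Snap25, a SNARE protein of vesicle fusion, was 8.14, 5.27, 5.52 and 5.51 in the control mandible and 10.28, 5.78, 7.77 and 5.60 in the control maxilla. In knockouts it was 3.76 to 5.29 in the mandible, and 4.61, 7.15, 4.90 and 9.07, then 6.60, 7.17, 6.48 and 4.64, in the maxilla. Syt1, the calcium sensor of release, spanned 6.04 to 9.10 and Syt4, its relative, 5.01 to 9.91. Again the proximal maxilla of control 1 was the highest array for all 3, and the proximal maxilla of knockout 4 the next.

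Secretory granule genes were more scattered. Scg2, a granin that is cut into neuropeptides, read 7.34, 6.70, 7.73 and 6.89 in the control mandible and 9.07, 7.35, 8.40 and 7.60 in the control maxilla. In knockouts it read 4.37, 4.57, 7.57 and 7.23, then 4.26, 4.14, 6.17 and 5.52, in the mandible, and 5.51, 4.88, 7.48 and 10.76, then 5.64, 6.42, 7.86 and 7.40, in the maxilla. Knockouts 1 and 2 thus lay below the other arrays of the same part in all 4 parts, and its top value belonged to knockout 4. Chga, chromogranin A, was 5.26 to 6.41 in the mandible but 8.94 in the proximal mandible of knockout 3, and reached 9.33 in the proximal maxilla of knockout 4. Scg3 ran from 5.74 to 10.02 and Vgf, a nerve growth factor-induced peptide, from 5.72 to 7.99.

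Gap43, a growth cone protein, was bright everywhere, between 10.12 and 12.29, and Cacna1b, the N-type calcium channel subunit, ran from 7.25 to 9.20. Gria2, an AMPA receptor subunit, lay between 5.42 and 8.28 and was lowest in the distal maxilla of knockout 3. Ntrk3, the receptor for neurotrophin 3, had 8 probe sets and stayed between 5.61 and 7.27 on the one used. Others ran from 4.70 to 7.80 and from 4.45 to 7.71, and averaged -0.65 and 0.38 log2 units for maxilla minus mandible. The rest averaged from -0.22 to 0.31, against -0.15 on the one used. Cntn2, an axon adhesion protein, stayed between 6.67 and 7.37, but another of its 4 probe sets read 10.10, 8.07 and 8.09 on the proximal maxilla of control 1, knockout 2 and knockout 4. Its other probe sets reached 10.09, 10.10 and 9.51. They averaged 1.24, 1.09 and 0.87 log2 units higher in the maxilla than in the mandible, against -0.03 on the one used. Rtn1, a reticulon of the neuronal endoplasmic reticulum, was 10.17, 8.74, 8.57 and 8.62 in the control mandible and 12.21, 10.30, 11.29 and 9.53 in the control maxilla. In knockouts it ran from 7.19 to 8.68 in the mandible and was 8.76, 9.86, 9.14 and 11.20, then 10.40, 10.45, 10.54 and 9.91, in the maxilla. At the distal end of knockouts it was 2.51 ± 0.53 higher in the maxilla than in the mandible (SE; limma, adjusted p = 0.0273), 5.69-fold.

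Between proximal and distal ends, 0 of 35 members were called in controls, in the knockout mandible or in the knockout maxilla, where 0%, 0.0578% and 0.00723% of all genes were called. At an unadjusted p under 0.05 there were 3, 3 and 1 of 35 members, against 0.506%, 4.21% and 2.7% of all genes. Only 2 of 35 differences pointed to higher distal values in controls, against 52.4% of all genes, with a median of -0.66 log2 units against 0.00. The control value includes the proximal maxilla of control 1, with the highest value of 25 members. In the mandible of control 2, Nefl was higher distally (11.23 against 7.32) and Stmn2 lower (9.17 against 11.14). In the knockout mandible and maxilla 7 and 19 of 35 were higher distally, against 45.6% and 49.4% of all genes. Isl1 was 1.03 ± 0.49 lower distally in controls and 1.23 ± 0.49 higher distally in the knockout mandible (SE, limma, neither passing). By the interaction test, no change of the jaw difference between the ends of knockouts passed (0 of 35 called, 0% of all genes). At an unadjusted p under 0.05 there were 0 members, against 2.55% of all genes.

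No member passed the test between knockouts and controls when the 4 parts were averaged for each genotype and number. Here 0 of 35 members and 0% of all genes were called (limma, 4 knockout and 2 control means). At an unadjusted p under 0.05 there were 2 members and 6.97% of all genes. Those 2 were Tubb3, 1.26 ± 0.31 lower in knockouts (SE; adjusted p = 0.635, 95% interval -2.03 to -0.50), and Stmn2, 1.99 ± 0.70 lower (adjusted p = 0.706, -3.71 to -0.27). For both, all 4 knockout means lay below both control means. They were named for their p on these same means, so this separation adds no support. The share of all genes separated in this way is not given here. The median member difference was -0.37 log2 units against -0.05 over all genes, and 4 of 35 members lay above 0, against 41.4% of all genes. Intervals were wide: that of Neurod1 (difference -0.48 ± 0.46) ran from -1.62 to 0.66.

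Part by part, 0 of 35 members were called at either end of the mandible (proximal, then distal) or of the maxilla, where 0%, 0.0145%, 0.00723% and 0.00723% of all genes were called. In that order the counts at an unadjusted p under 0.05 were 3, 2, 7 and 0 of 35, against 7.65%, 9.86%, 6.35% and 4.89% of all genes. The proximal maxilla had the lowest median member difference, -1.08, and the distal maxilla the highest, 0.06. The proximal maxilla rests on 2 control arrays that were far apart: 13.29 and 7.07 for Nefm, 12.49 and 7.66 for Prph. By the interaction test, no change of the genotype difference between the jaws passed (0 of 35, 0% of all genes). At an unadjusted p under 0.05 there was 1 member, against 0.773% of all genes.

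Split by array set, 3 of 35 members were called lower in knockouts 1 and 2 than in controls: Stmn2, Scg2 and Tubb3. Counting those not called, 6 of 35 differences lay above 0, against 44.1% of all genes. In this comparison 52.6% of all genes were called and 31.7% were called lower, so the members' share was below the background. Stmn2, a stathmin of growing axons, averaged 11.57 and 10.78 over the 4 parts of controls 1 and 2 and 8.25, 8.26, 10.30 and 9.90 in knockouts 1 to 4. Knockouts 1 and 2 were 2.91 ± 0.27 lower than controls (SE; limma, adjusted p = 0.00217), 7.54-fold, and knockouts 3 and 4 were 1.07 ± 0.31 lower without passing the test (adjusted p = 0.137).

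In the mandible, Stmn2 of controls read 10.66 and 11.14 proximally and 10.84 and 9.17 distally. Knockouts 1 and 2 read 6.28 and 5.71 proximally and 5.12 and 5.11 distally, while knockouts 3 and 4 read 9.68 and 8.38, then 9.99 and 9.06. In the maxilla controls read 12.79, 11.40, 11.98 and 11.39, knockouts 1 and 2 10.33, 10.85, 11.28 and 11.37, and knockouts 3 and 4 10.13, 11.47, 11.42 and 10.68. All 8 arrays of knockouts 1 and 2 thus lay below the control arrays of the same part, by more in the mandible. The interaction test of genotype and jaw, which no member passed, averaged all 4 knockouts. It therefore does not address knockouts 1 and 2 alone.

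Scg2 was 2.66 ± 0.33 lower in knockouts 1 and 2 (SE; limma, adjusted p = 0.00401), 6.34-fold, and 0.14 ± 0.38 lower in knockouts 3 and 4 (adjusted p = 0.843). Tubb3 was 1.44 ± 0.36 lower (adjusted p = 0.0257), 2.71-fold, and 1.09 ± 0.37 lower (adjusted p = 0.167). In knockouts 3 and 4, 0 of 35 members were called, where 1.56% of all genes were called. An unadjusted p under 0.05 was found for 3 of 35 members, against 26.8% of all genes. The comparisons share their controls. The RNA quality values above move with this contrast, and their part in it was not tested. Without control 1, 12 members were called in knockouts 1 and 2 (44% of all genes) and 0 in knockouts 3 and 4 (0.47%), and without control 2, 27 (47.5%) and 17 (9.96%). Without knockout 1 the first count was 1 (29.2%) and without knockout 2 it was 2 (37.7%). With the proximal maxilla left out of each mean, 5 members were called in knockouts 1 and 2 (51% of all genes) and 0 in knockouts 3 and 4 (9.27%).

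**Figure D5:**
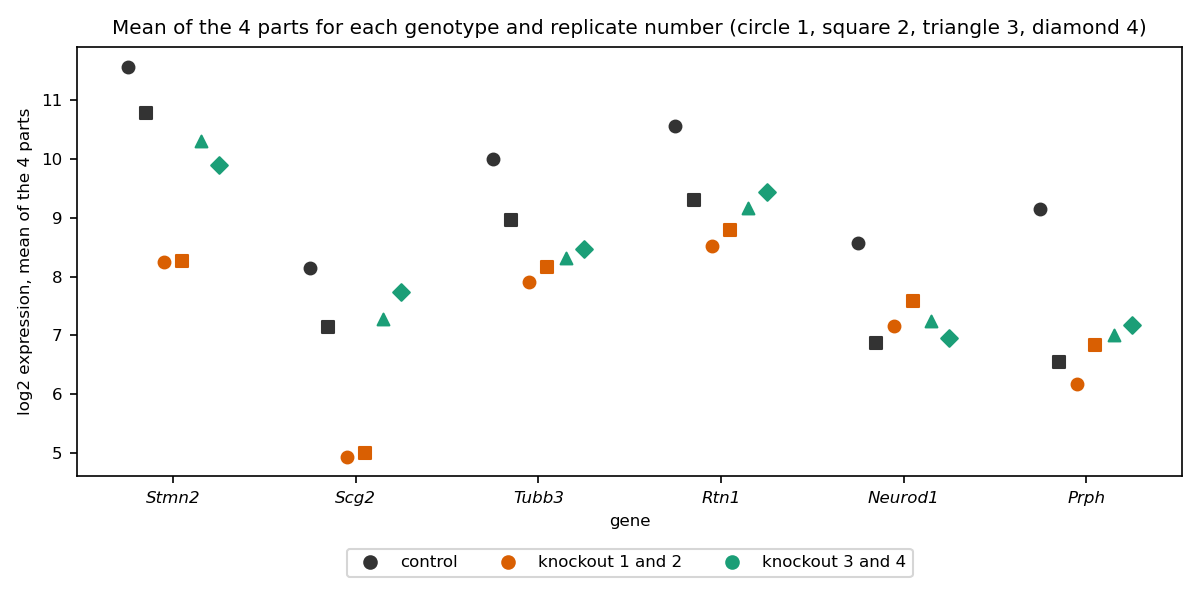
Mean log2 expression over the 4 parts of Stmn2, Scg2, Tubb3, Rtn1, Neurod1 and Prph for each genotype and replicate number (circle 1, square 2, triangle 3, diamond 4; no error bars, each point is 1 mean). Stmn2 and Scg2 of knockouts 1 and 2 lie below all other points of the gene, at 8.25 and 8.26 and at 4.94 and 5.00, and the points of Neurod1 overlap between genotypes.

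Other neuron genes moved with the members. Among all genes tested, those whose pattern over the 24 arrays was most like the members' mean were Scn9a, a sodium channel of sensory neurons (Pearson r = 0.975), Slc17a6, a vesicular glutamate transporter (0.963), Trpv2 (0.958), Uchl1 (0.957) and Syp, synaptophysin (0.956). The next 10, from Gdap1 down to Akap6 (0.942), held Apba2, Ttc9b, Ttll7, Ndrg4, Ap3b2, Prmt8, Myt1 and the neuronal kinesin Kif5a. The arrays share embryos, parts and normalisation, so these values only describe likeness. Scn9a read 3.65 to 6.04 in the mandible, and in the maxilla 9.99, 6.36, 8.06 and 4.87 in controls, 5.26, 7.49, 4.98 and 8.21, then 6.66, 7.01, 6.71 and 4.82, in knockouts.

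Within the list, Scg3 and Ina followed the mean of the other members most closely (r = 0.97 each), and Gria2 (-0.08) and Cntn2 (0.10), on the probe sets used, least. Of 18 other sensory ganglion genes, 13 were found and 10 tested. Insm1, a zinc finger factor of newborn neuroendocrine and neuronal cells, was higher in the maxilla of controls by 3.04 ± 0.61 and of distal knockouts by 2.57 ± 0.61 (SE; limma, adjusted p = 0.0479 and 0.0446), 1 of 10 in each. P2rx3 and Avil, genes of sensory neurons in ganglia, reached 9.87 and 9.44 on the proximal maxilla of control 1, 7.63 and 7.99 on that of knockout 4 and 7.26 and 7.58 on that of knockout 2. On the other 21 arrays they read at most 7.15 and 6.86. Of 22 other general neuron genes 20 were tested and 0 were called in the 3 jaw comparisons, with median differences of 0.78, 0.55 and 0.66.

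In knockouts 1 and 2 against controls, 4 of the 10 sensory ganglion genes were lower, Runx1 (by 2.47 ± 0.16), Ntrk2 (by 1.07 ± 0.13), Runx3 (by 1.18 ± 0.20) and Insm1 (by 1.61 ± 0.30; SE, limma, adjusted p = 0.00161, 0.00403, 0.00807 and 0.0108). Of the 20 general neuron genes, 4 were lower, among them Ncam1 (by 0.81 ± 0.08) and Dpysl3 (by 1.26 ± 0.13), and Kif21b and Stx1a were higher. Each stands beside a background of 52.6% called.

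Markers of other cells differed between the same arrays. Olfactory placode genes (6 of 8 found) averaged 5.93 to 7.24 on mandible and 7.36 to 9.59 on maxilla arrays. Of them, 4 of 6 were higher in the distal knockout maxilla: Lhx2 (4.91 ± 0.74), Sp8 (4.46 ± 0.71), Six3 (2.38 ± 0.40) and Emx2 (2.74 ± 0.66; SE, limma, adjusted p = 0.00214, 0.00348, 0.00478 and 0.0478). Otx2 and Fezf2, forebrain and olfactory genes of the brain list, were also higher there (5.18 ± 0.93 and 2.19 ± 0.38; adjusted p = 0.00744 and 0.00683), with Six3 and Emx2 among the 4 of 8 called on that list. Omp, made by mature olfactory neurons, stayed between 6.09 and 6.60.

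Lhx2 read 10.06 and 11.62 on the proximal maxilla of control 2 and the distal maxilla of control 1, arrays with Neurod1 of 9.75 and 11.33 but Pou4f1 of 4.69 and 4.73. It read 7.11 and 6.47 on the proximal maxilla of control 1 and knockout 2, where Pou4f1 was 9.81 and 8.11. On the distal maxilla of knockouts 1 and 2 both were high, Lhx2 at 10.47 and 10.64 and Pou4f1 at 8.14 and 8.72. Within the 12 maxilla arrays the mean of the olfactory list had r = -0.07 with the members' mean, and that of the sensory ganglion list r = 0.92. The members' mean covers all 35 genes, most of them not called between the jaws. Relative to their means over all arrays, the bHLH and olfactory lists were both highest on the distal maxilla of control 1, at 2.79 and 2.02. On the proximal maxilla of control 1 they stood at 2.32 and -0.22. For control 2 they stood at 1.69 and 1.15 proximally and at 0.09 and 0.56 distally. In the proximal maxilla of knockouts 1 to 4 the bHLH list stood at 0.34, 0.88, 0.09 and 1.26. The olfactory list stood there at 0.56, -0.03, 0.22 and 0.29. In the distal maxilla of knockouts 1 to 4 the bHLH list stood at 1.84, 2.12, 1.53 and 0.24. The olfactory list stood there at 1.66, 1.42, 1.07 and 0.37. The part of these cell types in the jaw difference was not tested.

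Skeletal muscle genes (13 of 13 found) averaged 8.95 to 10.87 on mandible and 5.69 to 10.43 on maxilla arrays and thus ran opposite to the members between jaws. Within a jaw they ran with them (r = 0.78 over 12 maxilla and 0.77 over 12 mandible arrays). Actc1, the cardiac alpha-actin of embryonic muscle, read 13.47 on the proximal maxilla of control 1 and 6.51 on that of control 2, and 13.04 and 7.14 on those of knockouts 4 and 3. Schwann precursor and migrating crest genes (10 of 12 found) averaged 6.92 to 8.77 on mandible and 7.18 to 9.23 on maxilla arrays, with r = 0.61 in the maxilla and 0.89 in the mandible. Sox10, their defining factor, read 10.06 on the proximal maxilla of control 1. That is a single value, chosen after it was seen and given without those of the other arrays. In knockouts 1 and 2, 8 of these 10 genes were lower than in controls, among them Foxd3 (by 0.75 ± 0.08; SE, limma, adjusted p = 0.00282), where 31.7% of all genes were called lower. What the muscle and glia genes contribute to the spread of the members was not tested.

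Of the motor and autonomic neuron markers (9 of 10 found), 2 to 4 lay above the filter level on each array. Dbh read 7.96 to 8.57 over all arrays. Mnx1 read 3.62 to 4.13 and Chat 4.89 to 5.57 over all arrays. Th, the enzyme that makes catecholamines, read 8.98 on the proximal maxilla of control 1 and 7.15 on that of knockout 4, and at most 6.28 on the others. Of this list 4 of 10 genes passed the filter, and 0 were called in the jaw comparisons.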

How the data were processed

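Total RNA of 24 samples was hybridised to Affymetrix Mouse430_2 arrays. The authors deposited log2 expression per probe set made with RMA, per the submitters' processing notes; version, and whether 1 run held all arrays, are not given in the sources used here. The 35 members and all gene lists were chosen with earlier results of these data known. Of 45101 probe sets, 34945 carry 1 symbol in the platform annotation (932 several, 9160 none, 64 controls left out). Per gene the probe set with the highest mean was used. Genes above the 40th percentile on at least 2 arrays were tested with limma 3.58.1 in R 4.3.3 (lmFit, eBayes without trend), 2-sided, Benjamini-Hochberg over 13837 genes, threshold 0.05. Jaws, ends, parts and interactions are contrasts of 1 fit with 8 group means; genotype over all parts was tested on the means of the 4 parts per number.

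Called members and, in each role, those of widest range are given array by array; of other lists, called genes, up to 4 by smallest p, plus defining markers chosen after their values were seen. Same-numbered samples of different parts deviated together in knockouts (24 pairs, r from 0.378 to 0.830, all above 0.1), so the block was used within knockouts, although sex did not match within numbers 1 and 2. These deviations do not separate the number from the array set. Controls (12 pairs, -0.681 to 0.584) and genotypes in 1 part (8 pairs, -0.500 to 0.222) were not paired. With 2 controls in a part, their deviations are equal and opposite. Each control r therefore occurs for both numbers, and this check of controls is small. Nothing says samples came from separate embryos, so a p-value reflects only how far these samples spread, which may be technical. On simulated data of the distal knockout jaw comparison (13837 genes), 69% of genes changed by 1 log2 unit and 93% of those changed by 2 were recovered. The 200 changed genes were picked at random from all genes tested, and values were drawn independently with each gene's own spread. These rates are therefore not those of the members, many of which spread widely among arrays of the same part. The number of arrays limits the precision. Alternatives were other filters, probe sets, centring, a replicate block, an RNA quality covariate, array sets and leave-outs. Listed genes without a probe set of 1 symbol were not analysed here.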

Additional observations from a re-analysis of the deposited data

Results flagged for a closer look

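In groups of 4 knockout arrays, 5 of 140 tests of a member in a group found an array far from the other 3; about 1 in 20 would be flagged by chance. In the proximal mandible, knockout 3 was high for Chga (8.94, others 5.55 to 5.89), Nhlh2 (5.16, others 4.14 to 4.29) and Gria2 (8.06, others 7.64 to 7.71). In the distal mandible, knockout 2 was low for Dcx (7.52, others 8.45 to 8.57) and knockout 1 high for Cntn2 (7.37, others 6.94 to 7.01). No explanation was tested.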

How the results depend on the processing

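Counts of members called are out of 35, each with the share of all genes called under the same setting. Against controls, the replicate block gave 3 over all parts (46.2%), 4 and 2 in the proximal and distal mandible (43.2% and 48.5%) and 4 and 1 in the proximal and distal maxilla (36% and 41.4%), where 0 were called without it; knockouts numbered 1 and 2 alone gave 3, 3, 1 and 1 in these parts (31.2%, 42.9%, 19.9% and 25.1%). The control jaw comparison (2) gave 4 with the mean of all probe sets (0.175%), with the replicate block (0.455%) and with the RNA quality covariate (0.672%), and 1 without the 2 arrays of unmatched sex (0.137%). The proximal knockout jaw comparison (2) gave 0 without a filter (0.148%), 1 with the mean of all probe sets (0.205%), 1 with the probe set of highest single value (0.217%), 1 with knockouts 1 and 2 alone (0.195%), 0 with knockouts 3 and 4 alone (0.0145%) and 0 without the 2 arrays, with or without the block. The distal one (5) gave 3 without a filter (0.731%), 10 with the replicate block (4.09%), 10 with array set as a block (5.07%), 9 with the RNA quality covariate (4.64%), 0 with knockouts 3 and 4 alone (0.0578%), 3 without the 2 arrays (0.94%) and 8 without them but with the block (3.67%). Leaving the proximal maxilla out of the means gave 5 in knockouts 1 and 2 (51%). Leaving out 1 replicate number gave 1 to 27 in knockouts 1 and 2 against controls, 0 to 17 in knockouts 3 and 4, 0 to 4 in the control, 0 to 2 in the proximal and 0 to 10 in the distal jaw comparison, and 0 in the others. Where a leave-out left 1 array in a group, its spread was taken to be that of the remaining groups. The block moved no other count by over 1.5 times. The probe set of highest single value, array set as a block and the leave-outs by sex were added after seeing the data. No called difference changed sign under the alternatives run. The cause of these changes was not tested, except that fewer arrays enter the leave-outs and the array sets. With 2 control arrays per part, whose values for a member could lie over 6 log2 units apart (Nefm 13.29 and 7.07), genotype differences of the size seen in the jaws may have gone uncalled.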
